A study of Mus musculus with 12 samples.

Results

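The 36 genes described here encode enzymes that build cholesterol and fatty acids, the proteins that control that synthesis, and targets of the sterol sensor LXR. They were listed by gene symbol with no threshold on a measured value, but with earlier results of these data known. Counts of members set beside shares of all genes are therefore descriptions and no independent test. Each member was read from the probe set that the array annotation pairs with that gene alone, taking the brightest one over all 12 arrays. This gave values for 35 of the 36 members, among 18193 genes with a probe set of their own, while Acat2 had none and was not analysed here. The measured members were 6 genes of the mevalonate steps and 11 of the squalene and sterol steps, together 17 sterol synthesis genes, 6 genes of sterol control, 9 fatty acid genes and 3 LXR targets. RNA came from B16-OVA, a mouse melanoma cell line engineered to express ovalbumin, grown in culture as a monolayer. The groups were cells 72 h after receiving GDC-0623 at 100 nM, a small molecule that inhibits MEK and is called MEKi here, cells 72 h after DMSO, the solvent, cells 24 h after MEKi, and cells 24 h after DMSO, with 3 arrays each. All 4 groups were the same line, seeded on the day before the addition, and no group was left without solvent. The comparisons asked how MEK inhibition changes gene expression in the tumor cells themselves. The replicates were called biological, without a statement that each was its own culture, so a p-value here reflects only how far these samples spread, which could be technical. Each array read the RNA of a whole culture, in which fewer cells of a type and less RNA per cell cannot be told apart.

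Cholesterol is built from acetyl-CoA through mevalonate and isoprenoid diphosphates to squalene, which is closed into a sterol and trimmed to cholesterol by the later enzymes. When membrane cholesterol is low, SCAP carries the transcription factors SREBP1 and SREBP2 (Srebf1 and Srebf2) from the endoplasmic reticulum to the Golgi, where they are cut and released to activate lipid genes. INSIG1 and INSIG2 hold SCAP back when sterols are plentiful, and Insig1 is itself an SREBP target. SREBP2 acts mainly on sterol genes and SREBP1 mainly on fatty acid genes. LXR, activated by oxidised sterols, switches on the efflux pumps Abca1 and Abcg1 and Mylip, whose product is a ubiquitin ligase.

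Values are log2 RMA signals, so that a difference of 1 is a 2-fold change, and a level cannot be compared between genes. The means of the members over the 12 arrays lay from 4.63 for Abcg1 to 13.38 for Scd2, and 34 of the 35 exceeded the median probe set mean of 5.36. All 7 defining markers of the melanocyte lineage lay at 11.91 to 14.37 in every array, whereas 12 measured of 14 listed markers of immune, stromal, endothelial, epithelial and fat cells lay between 2.81 and 6.56. Of the members, 5 (Hmgcs1, Fdft1, Hsd17b7, Acly and Elovl5) and 1 (Lss) were read from probe sets whose names end in x_at and s_at, which mark probes that may bind RNA of other genes. The ERK-dependent genes Dusp6, Spry4 and Etv5 were lower with MEKi, with differences of -1.29, -0.58 and -1.29 at 72 h and -1.41, -2.08 and -4.06 at 24 h (limma adjusted p at most 0.0452 and 0.00401). The harvest times differed in a labelling control: in the Dap spike, the 3' probe set exceeded the 5' one by 1.34 to 1.47 at 72 h and 1.96 to 2.16 at 24 h, and array medians were 5.36 to 5.42 and 5.31 to 5.34. DMSO replicate 3 at 72 h stood apart in these genes. It had the lowest value of its group in 17 of 17 sterol synthesis genes, 8 of 9 fatty acid genes and 30 of 35 members, against 34.9% of all genes, and values without it are given beside the results it moved. As it was picked for its low values in these genes, those values describe its weight and are no separate test. DMSO replicate 3 at 24 h was lowest in 16 of 17 sterol synthesis genes, though by smaller margins, against 33.1% of all genes. MEKi replicate 3 at 24 h had the highest Dusp6 of its group, at 10.58 against 9.95 and 9.88, and the highest Etv5, at 6.08 against 4.35 and 4.22, and was lowest in 13 of 17 sterol synthesis genes, against 35.2% of all genes.

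Promoter sequences are shown for the genes whose values carry the comparisons, to set the sterol genes beside the fatty acid genes in their regulatory DNA. For 27 of the 35 members RefSeq gave the 250 bases before a transcription start (GRCm38.p6), and these were searched on both strands for TCACNCCAC, a motif bound by SREBP, for CCAAT, the box bound by NF-Y, for GGGCGG, the GC box bound by SP1, and for CACGTG, an E-box. The CCAAT box occurred in each of the 14 matched sterol synthesis genes (82.4% of their 17 promoters) and in 2 of 6 matched fatty acid genes, Fasn and Elovl5, against 33.8% of all 32851 promoters of this length. The GC box occurred in 13 of 14 sterol synthesis genes (82.4% of their 17 promoters) and 2 of 6 fatty acid genes, against 32.7% of all promoters. The SREBP motif was found in Hmgcs1 alone (2.86% of the 35 promoters of the matched members), against 1.05% of all promoters. The E-box was found in 7 members, Abca1, Insig1, Hsd17b7, Sc5d, Dhcr7, Scap and Elovl5 (20.0% of the 35 promoters), against 6.02% of all promoters. A match is a description of the letters and not a measured site. In these sequences, which run 5' to 3' on the gene's strand, capitals mark the CCAAT box on either strand and the SREBP motif, and in Abca1 they mark the E-box. In Fasn the last pair of CCAAT box matches, 1 on each strand, overlap. The positions are chr13:119690101-119690350 (plus strand) for Hmgcs1, chr19:6067851-6068100 (minus strand) for Tm7sf2, chr5:28071162-28071411 (plus strand) for Insig1, chr3:129532136-129532385 (plus strand) for Elovl6, chr11:120824548-120824797 (minus strand) for Fasn and chr4:53159896-53160145 (minus strand) for Abca1.
Hmgcs1: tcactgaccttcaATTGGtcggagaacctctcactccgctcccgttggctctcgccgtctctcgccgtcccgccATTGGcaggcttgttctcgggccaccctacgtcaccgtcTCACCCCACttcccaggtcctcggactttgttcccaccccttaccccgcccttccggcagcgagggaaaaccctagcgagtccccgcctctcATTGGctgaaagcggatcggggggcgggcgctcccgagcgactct
Tm7sf2: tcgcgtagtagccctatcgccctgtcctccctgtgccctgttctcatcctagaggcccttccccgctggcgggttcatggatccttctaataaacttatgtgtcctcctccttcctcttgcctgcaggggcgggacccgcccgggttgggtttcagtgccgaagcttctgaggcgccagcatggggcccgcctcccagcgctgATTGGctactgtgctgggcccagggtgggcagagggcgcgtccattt
Insig1: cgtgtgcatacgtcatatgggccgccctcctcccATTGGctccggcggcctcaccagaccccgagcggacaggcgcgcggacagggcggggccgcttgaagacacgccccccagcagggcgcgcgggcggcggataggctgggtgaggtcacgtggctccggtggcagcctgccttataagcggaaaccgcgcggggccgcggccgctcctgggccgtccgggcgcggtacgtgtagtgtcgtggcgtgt
Elovl6: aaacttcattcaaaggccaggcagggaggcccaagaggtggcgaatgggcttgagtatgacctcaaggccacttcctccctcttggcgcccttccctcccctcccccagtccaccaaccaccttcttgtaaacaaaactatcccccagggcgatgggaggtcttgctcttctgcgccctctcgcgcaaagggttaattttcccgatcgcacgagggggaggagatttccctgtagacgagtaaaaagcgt
Fasn: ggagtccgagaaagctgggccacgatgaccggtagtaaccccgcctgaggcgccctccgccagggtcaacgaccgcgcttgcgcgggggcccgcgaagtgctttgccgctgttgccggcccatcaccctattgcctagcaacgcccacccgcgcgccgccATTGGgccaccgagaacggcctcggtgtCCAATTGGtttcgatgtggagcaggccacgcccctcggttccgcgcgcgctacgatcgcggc
Abca1: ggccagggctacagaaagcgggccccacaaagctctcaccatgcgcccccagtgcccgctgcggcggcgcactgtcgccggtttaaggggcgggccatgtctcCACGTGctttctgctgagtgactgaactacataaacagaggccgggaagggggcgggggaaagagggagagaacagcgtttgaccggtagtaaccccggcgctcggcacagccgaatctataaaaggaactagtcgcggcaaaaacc

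**Figure D1:**
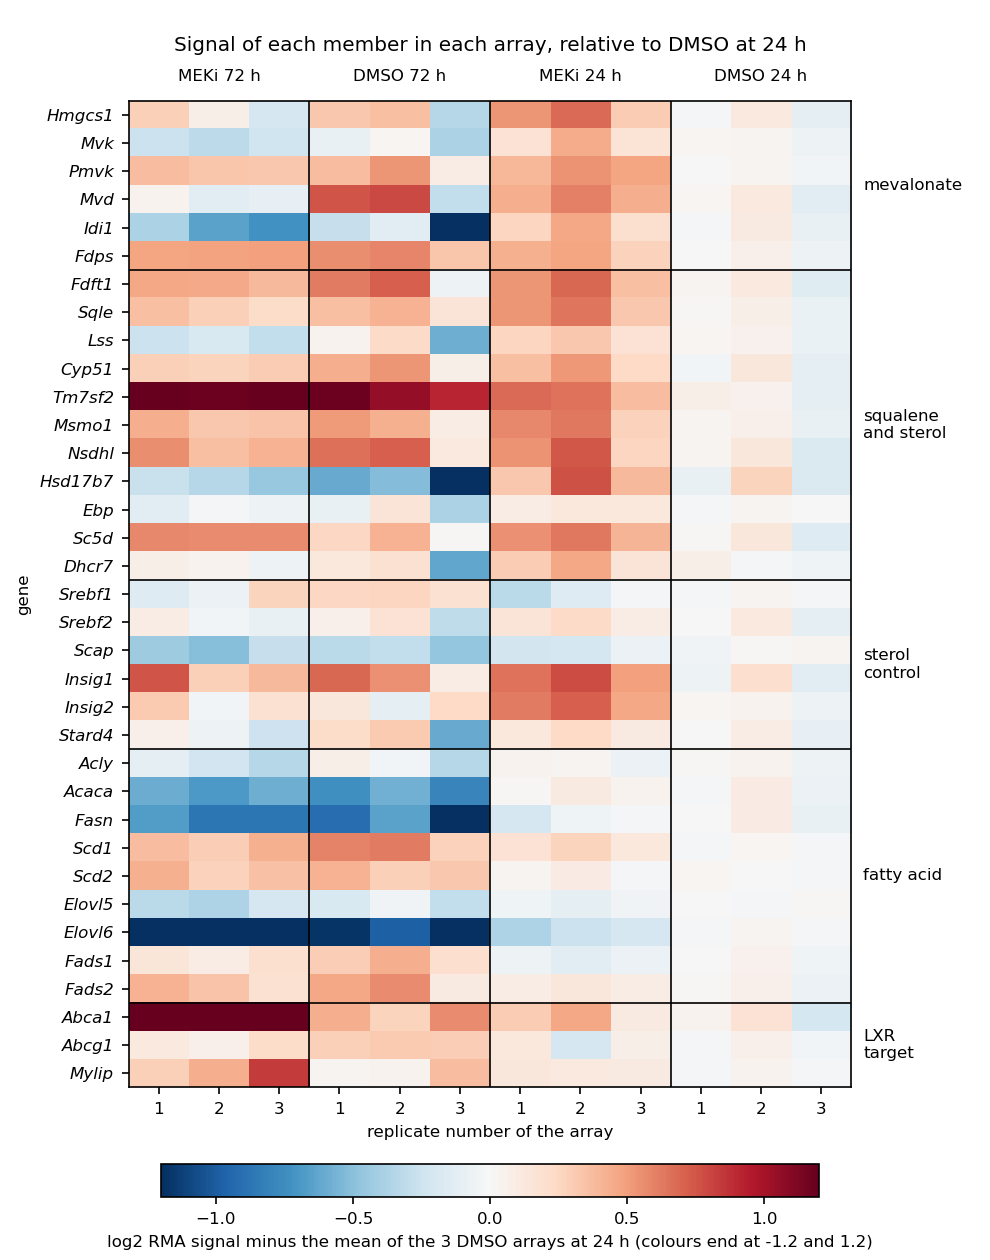
Log2 RMA signal of each of the 35 members (rows, by role) in each of the 12 arrays (columns, by group and replicate number), minus the mean of the 3 DMSO arrays at 24 h, with red higher and blue lower. The sterol synthesis genes are red in all 3 MEKi arrays at 24 h, DMSO replicate 3 at 72 h is paler or bluer than its group in 30 of 35 members, and Abca1 is darkest in the 3 MEKi arrays at 72 h.

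At 24 h the sterol synthesis genes were higher with MEKi as a group, and the 9 fatty acid genes among the members were not. All 17 sterol synthesis genes had all 3 MEKi arrays above all 3 DMSO arrays, a separation in that direction that 16.2% of all genes showed. Of the 17, 11 passed the test as higher and 0 as lower (limma, Benjamini-Hochberg adjusted p under 0.05 over all probe sets), where 5.01% of all genes were called higher and 5.86% lower. Their median log2 difference was 0.49, from 0.11 for Ebp to 0.57 for Tm7sf2, beside a median of 0.01 over all genes, and 16 of 17 had an unadjusted p under 0.05. These are differences of 1.08-fold to 1.48-fold. No share of all genes was counted at the unadjusted p, here or for the later counts at that p.

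Among the mevalonate steps, 4 of 6 measured genes rose. Pmvk, the kinase that phosphorylates phosphomevalonate, had signals of 8.84, 8.98 and 8.92 in the MEKi arrays, against 8.44, 8.48 and 8.41 in the DMSO arrays. The groups did not overlap, and the difference was 0.47 ± 0.06 (log2, SE, n = 3 per group; 1.39-fold; limma adjusted p = 0.00581). Mvd, which decarboxylates mevalonate diphosphate, had 8.61, 8.78 and 8.61 with MEKi and 8.20, 8.29 and 8.04 with DMSO. Again every MEKi array lay above every DMSO array, by 0.49 ± 0.09 on average (1.40-fold; adjusted p = 0.0131). Hmgcs1, the synthase of HMG-CoA at the head of the pathway, rose by 0.50 ± 0.10 and Fdps, which makes farnesyl diphosphate, by 0.39 ± 0.07 (adjusted p = 0.023 and 0.0171). Mevalonate kinase Mvk, at 0.26 ± 0.09, and the isomerase Idi1, at 0.30 ± 0.09, did not pass (adjusted p = 0.109 and 0.0756). With the replicate number as a block Idi1 passed as well (adjusted p = 0.0404).

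Among the squalene and sterol steps, 7 of 11 rose. Tm7sf2, a sterol reductase, had signals of 8.68, 8.65 and 8.37 with MEKi and 8.07, 8.05 and 7.88 with DMSO. The lowest MEKi array lay above the highest DMSO array, and the difference was 0.57 ± 0.10 (1.48-fold; adjusted p = 0.0128). Sc5d, a sterol desaturase, had 10.48, 10.56 and 10.34 with MEKi, against 9.94, 10.07 and 9.78 with DMSO, a rise of 0.53 ± 0.09 with no overlap (1.44-fold; adjusted p = 0.0132). Sqle, the epoxidase that commits squalene to sterols and limits the flux of the late pathway, had 11.79, 11.91 and 11.59 with MEKi and 11.28, 11.33 and 11.18 with DMSO. It rose by 0.50 ± 0.09 (1.41-fold; adjusted p = 0.0153). Squalene synthase Fdft1 rose by 0.53 ± 0.10, Nsdhl and Msmo1, which act in removal of methyl groups from the sterol ring, by 0.51 ± 0.13 and 0.50 ± 0.10, and the lanosterol demethylase Cyp51 by 0.37 ± 0.09 (adjusted p = 0.0181, 0.0472, 0.0211 and 0.0473). The genes that did not pass were Hsd17b7 at 0.49 ± 0.14, the last reductase Dhcr7 at 0.31 ± 0.09, lanosterol synthase Lss at 0.25 ± 0.07 and the isomerase Ebp at 0.11 ± 0.06 (adjusted p = 0.076, 0.0659, 0.0627 and 0.289). Hsd17b7 passed with the replicate number as a block (adjusted p = 0.0148).

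The probe sets not used for the gene values gave the same direction in most cases. Of all 38 probe sets of the 17 sterol synthesis genes, 36 were higher with MEKi at 24 h and 18 passed the test, all of them higher. The others belonged to Fdft1 and Fdps, with dim means of 5.46 and 2.82 over the 12 arrays and differences of -0.05 and 0.00. The number of genes past the threshold rested on single arrays, while the size of the difference did not. Leaving out DMSO replicate 1, 2 or 3 gave 4, 8 or 4 genes, and leaving out MEKi replicate 1, 2 or 3 gave 2, 1 or 13, whereas the median stayed between 0.40 and 0.53. Taken as same-numbered arrays, MEKi minus DMSO had medians of 0.42, 0.49 and 0.41 in the 3 pairs. All 17 differences were positive in each of these readings, which the lack of overlap between the groups had already fixed.

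In the control of the pathway, the pair of INSIG genes rose at 24 h and the SREBP genes did not pass the test. Insig1 had signals of 11.41, 11.54 and 11.25 with MEKi, against 10.70, 10.96 and 10.62 with DMSO. All MEKi arrays were above all DMSO arrays, and the difference of 0.64 ± 0.11 was the largest of any member at this time (1.56-fold; adjusted p = 0.0118). Insig2 had 11.01, 11.11 and 10.85 with MEKi and 10.41, 10.43 and 10.33 with DMSO, again without overlap, and rose by 0.60 ± 0.08 (1.52-fold; adjusted p = 0.00543). It passed in each of its 14 alternatives, and Insig1 in 12 of 14.

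Srebf2, which encodes the SREBP of the sterol genes, had 9.89, 9.96 and 9.82 with MEKi and 9.73, 9.85 and 9.62 with DMSO. The groups overlapped, and the difference was 0.16 ± 0.08 (95% interval -0.02 to 0.33; adjusted p = 0.275). Srebf1 had 9.89, 10.06 and 10.20 with MEKi and 10.20, 10.25 and 10.19 with DMSO, a difference of -0.16 ± 0.08 (-0.36 to 0.03; adjusted p = 0.297). Only MEKi replicate 3 reached the DMSO range. The escort protein gene Scap, at -0.17 ± 0.07, and the sterol transfer protein gene Stard4, at 0.16 ± 0.07, also missed the threshold (adjusted p = 0.177 and 0.252).

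The 9 fatty acid genes gave a different picture at 24 h. None passed as higher, 1 passed as lower, their median difference was 0.00, and by limma's unadjusted p under 0.05 there was 1 higher, Scd1, and 1 lower. Fasn, the synthase of palmitate, had signals of 11.22, 11.37 and 11.41 with MEKi and 11.42, 11.52 and 11.33 with DMSO. The groups overlapped, with a difference of -0.09 ± 0.08 (95% interval -0.27 to 0.09; adjusted p = 0.561). Acly, which supplies cytosolic acetyl-CoA, and Acaca, which makes malonyl-CoA, differed by 0.00 ± 0.06 and 0.06 ± 0.07 (adjusted p = 0.986 and 0.691).

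The desaturase gene Scd1 had 10.94, 11.03 and 10.89 with MEKi and 10.75, 10.79 and 10.75 with DMSO. Its arrays did not overlap, and the difference of 0.19 ± 0.06 missed the threshold (adjusted p = 0.11). Scd2, the brightest member, had 13.23, 13.30 and 13.19 with MEKi and 13.22, 13.20 and 13.18 with DMSO, a difference of 0.04 ± 0.06 (95% interval -0.10 to 0.18; adjusted p = 0.762). Elovl6, which lengthens palmitate to stearate, was the member that fell. It had 10.19, 10.31 and 10.36 with MEKi and 10.55, 10.60 and 10.54 with DMSO, with no overlap, or -0.28 ± 0.07 (1.21-fold lower; adjusted p = 0.0414). The call was near the threshold and held in 7 of 14 alternatives, being lost without any one array other than MEKi replicate 3, with adjusted p from 0.00296 to 0.411, and 0.0635 with the replicate number as a block. Elovl5, Fads1 and Fads2, which act on polyunsaturated fatty acids, differed by -0.07, -0.09 and 0.11, none of them past the threshold.

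Set beside the mean of DMSO at 24 h, the median shift of the 17 sterol synthesis genes in the MEKi arrays at 24 h was 0.43, 0.60 and 0.28, against 0.02, 0.07 and -0.09 in the DMSO arrays themselves. The same median over the 9 fatty acid genes was 0.02, 0.03 and -0.01 with MEKi and 0.00, 0.04 and -0.05 with DMSO. By this median the sterol genes parted the groups array by array, and the fatty acid genes did not. Single fatty acid genes did part them, in both directions. Scd1 and Fads2 lay wholly higher with MEKi, and Elovl5, Elovl6 and Fads1 wholly lower. Among all genes 16.2% lay wholly above DMSO, and the share wholly below was not counted. The smallest shift of the sterol genes with MEKi, 0.28, was that of replicate 3, the array with the highest Dusp6 and Etv5 of its group. The part of the level of ERK-dependent genes in that shift was not tested.

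**Figure D2:**
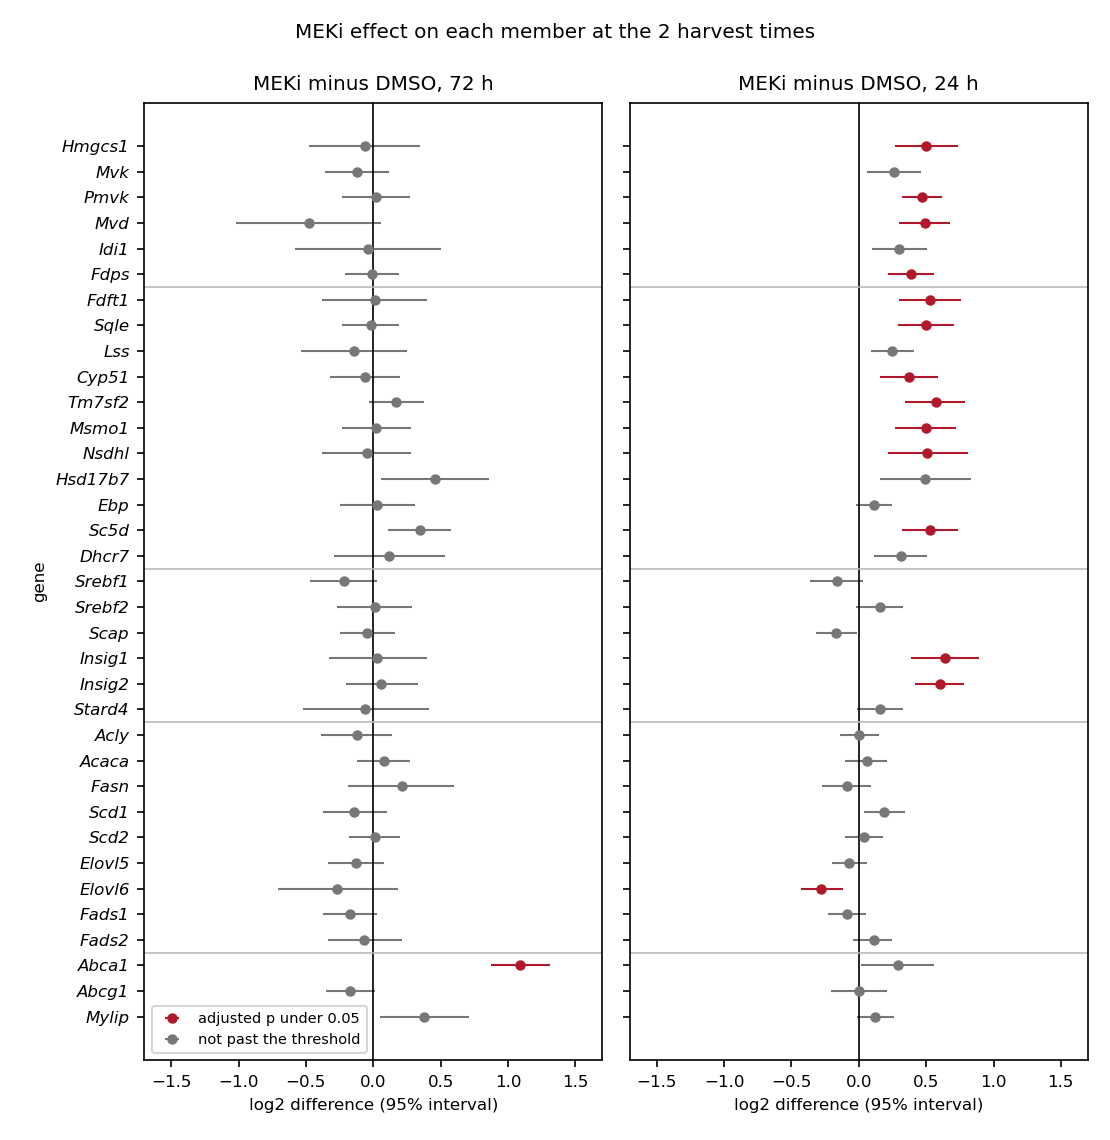
Log2 difference MEKi minus DMSO for each member at 72 h (left) and 24 h (right), with points for the limma estimate and bars for its 95% interval (n = 3 arrays per group), red where the adjusted p is under 0.05. At 24 h the 17 sterol synthesis genes (upper blocks) all lie right of 0 and Elovl6 lies left of it, and at 72 h Abca1 is the only member past the threshold.

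At 72 h the sterol synthesis genes did not part MEKi from DMSO cells. None of the 17 passed the test in either direction (limma), 2 had an unadjusted p under 0.05, both higher, and the median difference was -0.01, with 8 positive and 9 negative, beside 0.01 over all genes. Among all genes 4.03% were called higher and 5.14% lower at this time. None of the 9 fatty acid genes passed either, with 0 at an unadjusted p under 0.05 and a median of -0.12. That median was -0.20 without DMSO replicate 3, with 8 of 9 negative and 1 called. The intervals were wide beside those of 24 h, with a standard error of 0.19 for Hmgcs1 against 0.10.

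Mvd showed the spread of the DMSO group most clearly. It had signals of 8.22, 8.04 and 8.08 with MEKi and 8.93, 8.97 and 7.88 with DMSO, so that a pair of DMSO arrays lay above all MEKi arrays and the last one below them. The difference was -0.48 ± 0.24 (95% interval -1.02 to 0.06; adjusted p = 0.314). Without DMSO replicate 3 it was -0.84 (adjusted p = 0.00398). Sqle had 11.62, 11.55 and 11.48 with MEKi and 11.62, 11.68 and 11.42 with DMSO, with a difference of -0.02 ± 0.09 (-0.23 to 0.19; adjusted p = 0.929).

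Pmvk had 8.81, 8.78 and 8.77 with MEKi, against 8.81, 8.97 and 8.53 with DMSO, a difference of 0.02 ± 0.11, or -0.10 without DMSO replicate 3. Tm7sf2 had 9.24, 9.18 and 9.24 with MEKi and 9.18, 9.05 and 8.91 with DMSO, at 0.17 ± 0.09 (adjusted p = 0.333). Sc5d had 10.51, 10.50 and 10.50 with MEKi and 10.18, 10.35 and 9.94 with DMSO. Its groups did not overlap, as for Hsd17b7 and Abca1 (14.7% of all genes lay wholly above DMSO), and the difference of 0.35 ± 0.11 missed the threshold (adjusted p = 0.0879). Hsd17b7 was higher in all MEKi arrays too, by 0.46 ± 0.18 (adjusted p = 0.182). These differences were 0.24 for Sc5d and 0.21 for Hsd17b7 without DMSO replicate 3 (adjusted p = 0.182 and 0.255). The probe sets of a gene did not all go one way at this time. Of all 38 probe sets of the sterol synthesis genes 14 were higher with MEKi and 2 passed, both as lower, a dimmer one of Sc5d at -0.40 and one of Cyp51 at -0.47 (adjusted p = 0.0187 and 0.0387), against 0.35 and -0.06 for the probe sets used.

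In same-numbered arrays at 72 h, the median of MEKi minus DMSO over the 17 sterol synthesis genes was -0.07 in replicate 1, -0.19 in replicate 2 and 0.29 in replicate 3. The sign was negative for 12 and 14 genes in the first 2 pairs and positive for 17 of 17 in the last. Without DMSO replicate 3 the median over all arrays was -0.14, with 14 of 17 negative, and Mvd was the only sterol synthesis gene called. Without DMSO replicate 2 only Sc5d passed, as higher (0.44). The mean correlation of DMSO replicate 3 with the other arrays of its group over all probe sets was 0.9963, against 0.9966 to 0.9981 for the other 11 arrays.

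The genes of sterol control did not pass at 72 h. Insig1 had 11.51, 11.05 and 11.15 with MEKi and 11.45, 11.31 and 10.85 with DMSO, and Insig2 had 10.70, 10.36 and 10.57 with MEKi and 10.53, 10.28 and 10.63 with DMSO. The groups overlapped for both, with differences of 0.03 ± 0.16 and 0.06 ± 0.12 (95% intervals -0.33 to 0.40 and -0.20 to 0.33), and of -0.14 and 0.14 without DMSO replicate 3. Srebf1 had 10.06, 10.14 and 10.48 with MEKi and 10.46, 10.47 and 10.40 with DMSO, a difference of -0.22 ± 0.11 (adjusted p = 0.326). Srebf2 had 9.82, 9.70 and 9.64 with MEKi and 9.79, 9.91 and 9.43 with DMSO, at 0.01 ± 0.12 (adjusted p = 0.98), or -0.13 without DMSO replicate 3.

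Of the fatty acid genes at 72 h, Fasn had 10.75, 10.56 and 10.56 with MEKi and 10.51, 10.78 and 9.96 with DMSO, a difference of 0.21 ± 0.18 (adjusted p = 0.586) that was -0.02 without DMSO replicate 3. Elovl6 had 8.98, 8.92 and 8.91 with MEKi and 9.39, 9.58 and 8.64 with DMSO. Here too DMSO replicate 3 lay below the MEKi arrays and the other DMSO arrays above them, and the difference of -0.27 ± 0.20 became -0.55 without that array (adjusted p = 0.521 and 0.0151). Scd1 had 11.13, 11.06 and 11.19 with MEKi and 11.36, 11.39 and 11.04 with DMSO, and Scd2 had 13.63, 13.48 and 13.55 with MEKi and 13.62, 13.49 and 13.52 with DMSO. Neither passed, at -0.14 ± 0.11 and 0.01 ± 0.08 (adjusted p = 0.543 and 0.968).

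The 1 member that did change at 72 h was Abca1, the transporter that loads cholesterol onto lipid-poor apolipoprotein. It had signals of 11.35, 11.24 and 11.21 with MEKi, against 10.19, 10.02 and 10.32 with DMSO. The MEKi arrays lay far above the DMSO arrays, and the rise was 1.09 ± 0.10 (2.13-fold; adjusted p = 0.000671). At 24 h Abca1 had 10.05, 10.21 and 9.86 with MEKi and 9.79, 9.92 and 9.54 with DMSO. Those groups overlapped, with a difference of 0.29 ± 0.12 that missed the threshold (adjusted p = 0.184) and passed it with the replicate number as a block (adjusted p = 0.0441).

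The 72 h rise of Abca1 was called in each of 14 alternatives, at 1.01 to 1.16 and with adjusted p from 3.09e-05 to 0.00591, and its other probe sets gave 1.01 and 1.02. The other LXR targets did not follow it past the threshold. Abcg1, the partner pump and the dimmest member, differed by -0.17 ± 0.08 at 72 h and 0.00 ± 0.09 at 24 h (adjusted p = 0.28 and 0.988). Mylip differed by 0.38 ± 0.15 at 72 h and 0.12 ± 0.06 at 24 h (adjusted p = 0.181 and 0.249), and with the replicate number as a block it passed at 72 h (adjusted p = 0.0334).

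**Figure D3:**
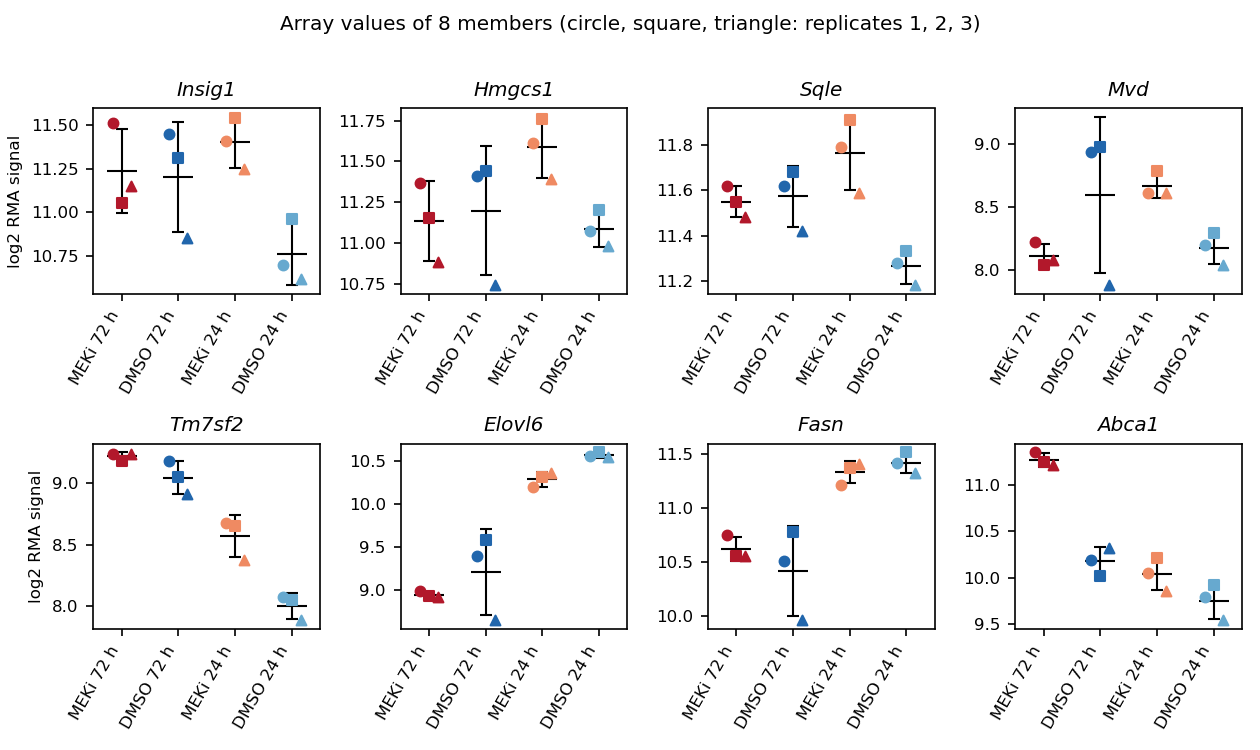
Log2 RMA signal of 8 members in each array (points, shaped by replicate number), with the group mean (dash) and SD (bars, n = 3), for MEKi and DMSO at 72 h and at 24 h. Each vertical axis covers its own range and does not start at 0. DMSO replicate 3 at 72 h (triangle) is the lowest of its group in all panels but Abca1, where the MEKi arrays at 72 h stand above all others.

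Whether the response itself differed between the times was tested as the MEKi effect at 72 h minus that at 24 h, over all 12 arrays. All 17 sterol synthesis genes had a lower effect at 72 h, a negative difference, with a median of -0.40 beside 0.00 over all genes, from -0.03 for Hsd17b7 to -0.97 for Mvd. None passed the adjusted threshold (limma), although 11 of the 17 had an unadjusted p under 0.05, all lower. Among all genes 1.97% were called with a higher effect at 72 h and 2.1% with a lower one, at the adjusted threshold. The share of all genes with an unadjusted p under 0.05 was not counted, so how unusual 11 of 17 is cannot be judged from these shares. The nearest to the threshold was Sqle, at -0.52 ± 0.13 (95% interval -0.81 to -0.24; adjusted p = 0.0504). Among all 38 probe sets of these genes 3 passed, each lower, which were 2 of Cyp51 at -0.92 and -0.75 and 1 of Sc5d at -0.88 (adjusted p = 0.00745, 0.048 and 0.000774), all dimmer than the probe sets used, which gave -0.43 and -0.18.

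The count turned on the same DMSO array. As that array was lowest of its group in all 17 genes, leaving it out had to lower each difference and is no separate test. Without DMSO replicate 3 at 72 h, 11 of the 17 passed, all with a lower effect at 72 h, with the median at -0.57. These were Hmgcs1, Pmvk, Mvd, Idi1, Fdps, Fdft1, Sqle, Lss, Cyp51, Msmo1 and Nsdhl, from -0.48 for Fdps to -1.33 for Mvd. For some of them the effects had opposite signs, since without that array the 72 h effects of Mvd, Lss and Idi1 were -0.84, -0.38 and -0.38, of which that of Mvd passed, against 0.49, 0.25 and 0.30 at 24 h. Leaving out any other single array gave 0 or 1. With the replicate number within each time as a block, Hmgcs1 and Sqle passed (adjusted p = 0.0388 and 0.0239), as did Insig1 at -0.61 and Insig2 at -0.54 (adjusted p = 0.0472 and 0.0235, against 0.174 and 0.0776 with no block).

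The fatty acid genes had no such shift, with 6 of 9 differences negative, a median of -0.06 and 0 called (limma), and 1 at an unadjusted p under 0.05, Scd1 at -0.33 ± 0.13 (adjusted p = 0.211). Without DMSO replicate 3 at 72 h Scd1 passed at -0.44 (adjusted p = 0.0366). Elovl6 and Acaca differed by 0.01 ± 0.24 and 0.02 ± 0.11 between the times. Abca1 was the member whose response differed past the threshold, with an effect larger at 72 h by 0.80 ± 0.16 (1.74-fold; adjusted p = 0.0164), a call kept in 19 of 19 alternatives.

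The same arrays were next read over time within each treatment. The 2 comparisons over time and the 2 of MEKi share arrays, and the Dap spike, the array medians and the summed level of the markers of other cell types (53.5 to 55.0 at 72 h and 51.8 to 53.3 at 24 h) moved with time too. Their part in these results was not tested. Where the replicate number was a block in the comparisons over time, it tied arrays of different times, for which the check of pairing gave little ground. In DMSO cells, 4 of 17 sterol synthesis genes were higher at 72 h than at 24 h and 1 was lower, where 14.2% of all genes were higher and 16.9% lower, and their median was 0.31 beside 0.04. In the same cells the fatty acid genes split, with 4 of 9 higher and 3 lower.

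Tm7sf2 rose most among the sterol synthesis genes, with 9.18, 9.05 and 8.91 in DMSO cells at 72 h, against 8.07, 8.05 and 7.88 at 24 h. The groups were far apart, with a difference of 1.05 ± 0.09 (2.07-fold; adjusted p = 0.000166). Nsdhl, Fdps and Sqle rose by 0.50, 0.49 and 0.31 (adjusted p = 0.0464, 0.00367 and 0.0325), and Hsd17b7 fell by 0.81 (adjusted p = 0.018). The count of higher sterol synthesis genes was 10 without DMSO replicate 3 at 72 h, where the median was 0.39, and 2 without any one of the other 5 arrays, and Hsd17b7 missed the threshold without DMSO replicate 2 at 24 h. With the replicate number as a block across the times the count was 8, the added genes being Pmvk, Fdft1, Cyp51 and Msmo1.

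By the probe sets used, Elovl6 fell most of all members in DMSO cells. Its signals of 9.39, 9.58 and 8.64 at 72 h lay well below the 10.55, 10.60 and 10.54 of 24 h, a difference of -1.36 ± 0.20 (2.57-fold lower; adjusted p = 0.00167). The size depended on the probe set. The other probe sets of Elovl6, with means of 8.6 and 3.88, gave -0.57 and -0.06 (limma adjusted p = 0.0387 and 0.756). Fasn, with 10.51, 10.78 and 9.96 at 72 h and 11.42, 11.52 and 11.33 at 24 h, fell by 1.01 (2.01-fold lower; adjusted p = 0.00375), and Acaca by 0.70 (1.62-fold lower; adjusted p = 0.000623). Scd1, with 11.36, 11.39 and 11.04 at 72 h and 10.75, 10.79 and 10.75 at 24 h, rose by 0.50 ± 0.10, and Scd2 by 0.34 ± 0.07 (adjusted p = 0.00663 and 0.0076). Fads2 and Fads1 rose by 0.38 and 0.31 (adjusted p = 0.042 and 0.0229). By the probe sets used, the members that passed as lower, Acaca, Fasn and Elovl6, build or lengthen the carbon chain, and those that passed as higher are desaturases, a grouping made after the values were seen and not tested. The other probe sets of Acaca and Fads1, with means of 5.26 and 5.93, gave 0.12 and -0.13 (limma adjusted p = 0.432 and 0.335). Those of Scd1, Scd2 and Fads2 were all positive. Fads1 lost its call with the mean over probe sets. Without DMSO replicate 3 at 72 h the differences were -1.08 for Elovl6, -0.78 for Fasn and -0.65 for Acaca. The count of higher fatty acid genes was 2 without DMSO replicate 1 or 3 at 24 h and without DMSO replicate 1 or 2 at 72 h.

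Of the control genes in DMSO cells, Scap fell by 0.36 and Srebf1 rose by 0.23 (adjusted p = 0.00788 and 0.0363), and the call of Scap held in 14 of 14 alternatives and that of Srebf1 in 6 of 14, with adjusted p up to 0.0356 and 0.121. Insig2 did not pass by the probe set used, at 0.09, while its other probe sets gave 0.47 and 0.31 (limma adjusted p = 0.548, 0.0219 and 0.0332). By the probe sets used, the efflux pumps Abca1 and Abcg1 rose by 0.43 and 0.30 (adjusted p = 0.0254 and 0.0119). These calls held in 8 of 14 and 10 of 13 alternatives, with adjusted p up to 0.153 and 0.151. The other probe sets, dimmer than those used, gave 0.22 and 0.01 for Abca1 and -0.02 for Abcg1 (limma adjusted p = 0.118, 0.979 and 0.912). The Abcg1 call was lost with the mean over probe sets. Abca1 lost its call with the replicate number as a block (adjusted p = 0.0511), with the mean over probe sets, without DMSO replicate 1 or 3 at 24 h and without DMSO replicate 1 or 3 at 72 h, where the difference was 0.35 without replicate 3 (adjusted p = 0.0794).

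In MEKi cells the sterol synthesis genes ran mostly downward over time. Here 7 of 17 were lower at 72 h than at 24 h and 1, Tm7sf2, was higher, where 16% of all genes were lower and 13.5% higher, and the median was -0.19 beside 0.04. Leaving out each array in turn gave 5 to 8 lower and 1 higher. Idi1 fell by 0.89, Hsd17b7 by 0.85, Mvd by 0.55, Mvk by 0.53, Lss by 0.50, Hmgcs1 by 0.45 and Dhcr7 by 0.29 (limma adjusted p from 0.000377 for Idi1 to 0.0446 for Dhcr7). Mvd had 8.22, 8.04 and 8.08 at 72 h, all below the 8.61, 8.78 and 8.61 of 24 h. Tm7sf2, with 9.24, 9.18 and 9.24 at 72 h and 8.68, 8.65 and 8.37 at 24 h, rose by 0.65 ± 0.09 (1.57-fold; adjusted p = 0.000891).

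Of the fatty acid genes of MEKi cells, 3 of 9 were lower at 72 h than at 24 h and 2 were higher. Elovl6, with 8.98, 8.92 and 8.91 at 72 h and 10.19, 10.31 and 10.36 at 24 h, fell by 1.35 (2.55-fold lower; adjusted p = 1.05e-05). Its other probe sets gave -0.53 and -0.10 (limma adjusted p = 0.00409 and 0.489). Fasn fell by 0.71 and Acaca by 0.68 (adjusted p = 0.000382 and 0.000187), while Scd2 rose by 0.31 and Fads1 by 0.23 (adjusted p = 0.0147 and 0.041). The other, dimmer probe sets of Acaca and Fads1 gave -0.02 and -0.16 (limma adjusted p = 0.939 and 0.24). Fads1 missed the threshold with the replicate number as a block (adjusted p = 0.0567), and 0 or 1 fatty acid genes passed as higher without any one array other than MEKi replicate 3 at 72 h. By the probe sets used, Scd1, at 0.17 ± 0.08, and Fads2, at 0.21 ± 0.08, did not pass (adjusted p = 0.132 and 0.0979). The other probe set of Scd1 gave 0.48, and those of Fads2 gave 0.48 and 0.33 (limma adjusted p = 0.00331, 0.00109 and 0.0113). With the mean over probe sets Scd1 and Fads2 were called and Fads1 was not. Insig2 fell by 0.45, Abca1 rose by 1.23 ± 0.10 (2.34-fold) and Mylip by 0.40 (adjusted p = 0.0125, 4.08e-05 and 0.0436), and the call of Mylip held in 8 of 14 alternatives. The other probe sets of Insig2, with means of 9.9 and 10.5 against 10.6, gave -0.09 and -0.24 (limma adjusted p = 0.671 and 0.12). The Insig2 call was lost with the mean over probe sets.

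**Figure D4:**
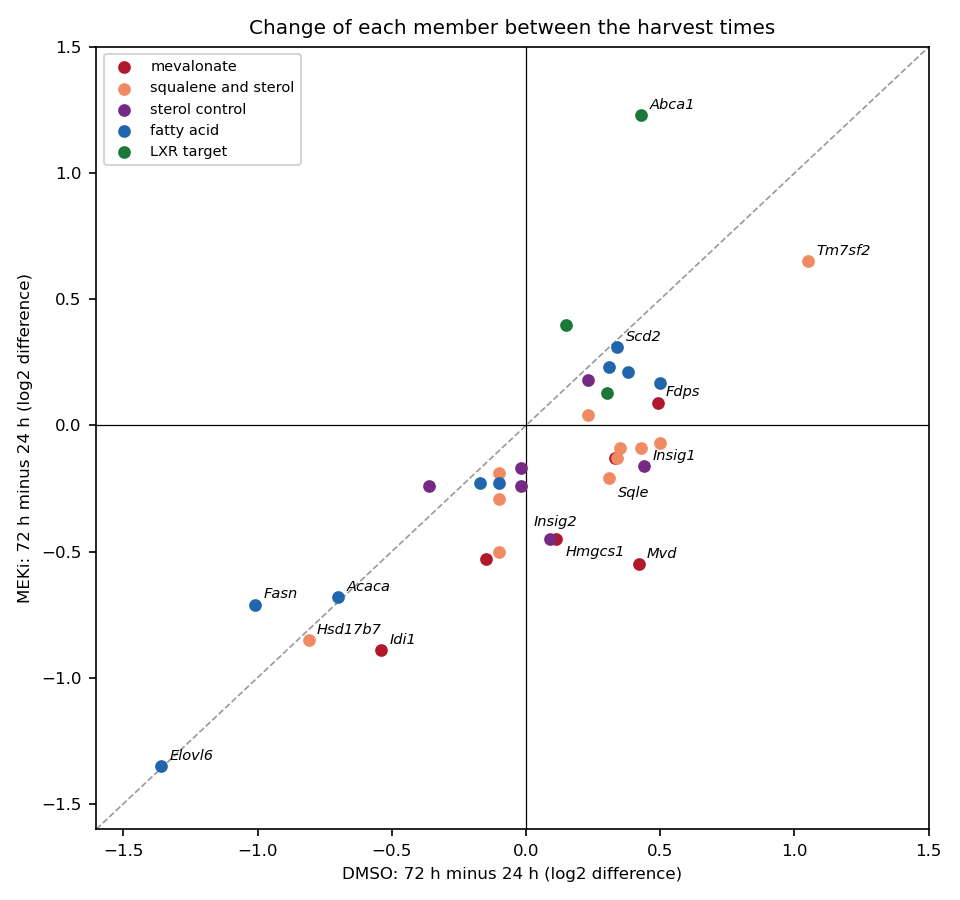
Log2 difference 72 h minus 24 h of each member in DMSO cells (horizontal) and in MEKi cells (vertical), coloured by role, with the dashed line marking equal change in both. Elovl6 and Acaca lie close to the line, with MEKi and DMSO differences of -1.35 and -1.36 and of -0.68 and -0.70, the 17 sterol synthesis genes all lie below it, and Abca1 lies above it.

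Genes of the same pathways outside the members were read from lists, of which some genes were not analysed here. Among all genes, 5.01% were called higher and 5.86% lower at 24 h, and 4.03% and 5.14% at 72 h. Of 13 measured other sterol and SREBP genes, 1 was higher and 1 lower at 24 h, the endosomal cholesterol transporter gene Npc1 at 0.41 and the phosphatidate phosphatase gene Lpin1 at -0.29 (adjusted p = 0.013 and 0.0376), and Lpin1 alone passed at 72 h, at -0.36 (adjusted p = 0.0446). Of 19 measured other fatty acid genes, 4 were higher and 0 lower at 24 h, unlike the fatty acid genes among the members. The higher ones were the elongation genes Elovl7 and Hacd2, malic enzyme Me1 and the acetyl-CoA synthetase Acss2, by 0.64, 0.40, 0.36 and 0.30. At 72 h 3 were higher, Elovl1, Me1 and Agpat3, by 0.61, 0.46 and 0.33, and Acsl3 was lower, at -0.47. Acss2 was the 1 gene of these lists whose MEKi effect differed between the times, by -0.64 (adjusted p = 0.00977). Of 6 measured other LXR genes, the HDL receptor gene Scarb1 was lower at 24 h, at -0.48, and Lpcat3, which remodels phospholipids, was higher at 72 h, at 0.35 (adjusted p = 0.00501 and 0.0279). Over time, 8 of the 19 other fatty acid genes were higher and 6 lower in MEKi cells, where 13.5% of all genes were higher and 16% lower. In DMSO cells 5 were higher and 6 lower, where 14.2% of all genes were higher and 16.9% lower. Tecr, a reductase of chain elongation, rose by 0.45 in MEKi cells and 0.73 in DMSO cells (adjusted p = 0.00245 and 0.000213), whereas the elongation gene Hacd3 fell by 0.25 and by 0.56 (adjusted p = 0.0345 and 0.0014). Of the 13 other sterol and SREBP genes, 2 were higher and 3 lower over time in MEKi cells, and 1 was lower in DMSO cells. Of the 6 other LXR genes, 3 were higher and 1 lower in MEKi cells, and 2 were higher and 2 lower in DMSO cells.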

How the data were processed

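The deposited values are log2 RMA signals, which the authors made from Affymetrix mouse whole-genome arrays (1 array per sample, 12 samples, 200 ng of total RNA labelled by a 3' IVT method). RMA corrects background, equalizes the array distributions and summarizes the probes of a probe set, and it leaves differences of dim genes understated. Software versions and the normalization settings are not given in the sources used here. Of 45101 probe sets, 64 controls were left out, and the annotation paired 34945 of the other 45037 with 1 gene, 932 with several and 9160 with none. The number of arrays limits the precision.

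Groups came from the sample labels. Each comparison of a pair of groups was a limma fit (version 3.58.1, R 4.3.3) to its own 6 arrays with empirical Bayes moderation and no covariates, two-sided, with Benjamini-Hochberg adjustment over 45037 probe sets and a threshold of 0.05. How far the MEKi effects differed between the times was read from a contrast over all 12 arrays. The members and the gene lists were chosen with earlier results of these data known. Array values are given for the 2 called members of each role with the smallest adjusted p in each MEKi comparison, for Insig1, Srebf1, Srebf2, Sqle, Fasn, Scd1, Scd2 and Abca1, and for members called in the difference. The other genes are given by single values, and those outside the members by up to 4 called genes per list.

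As a check of pairing, the deviations of arrays from their group means were correlated across probe sets. Within a time, same-numbered MEKi and DMSO arrays correlated at 0.073 to 0.189 over all probe sets and 0.207 to 0.307 over the brighter ones, and differently numbered ones at -0.156 to 0.032 and -0.288 to 0.002. As each same-numbered pair among the brighter ones exceeded the others, the number was treated as a pair within a time, and a fit with it as a block was an alternative. In the comparisons over time that block tied arrays of different times. There same-numbered arrays correlated at 0.0339, 0.0181 and 0.00558 in DMSO cells and 0.0723, -0.0174 and 0.107 in MEKi cells. Differently numbered ones reached 0.00305 and 0.1, so a pairing across times was weak in DMSO cells and not seen in MEKi cells. Further alternatives were a fit of all 12 arrays together, only the brighter probe sets, centred arrays, a repeated quantile normalization, a trended and robust prior, array weights, averaging the probe sets of a gene, and dropping each array once. In simulated data with 50 probe sets changed at each fold, the 24 h fit recovered 28 at 1.5-fold and 44 at 2-fold with 5 false calls, and the fit of the difference 19 and 41 with 5. Few of the 45037 probe sets changed there and the spread was pooled over all 4 groups, so recovery in the real fits may differ.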

Additional observations from a re-analysis of the deposited data

Results flagged for a closer look

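The MEKi effect on Abca1 differed between the harvest times, by 0.80 ± 0.16 on the log2 scale (limma, contrast over all 12 arrays; 95% interval 0.46 to 1.14; adjusted p = 0.0164). It was 1.09 at 72 h and 0.29 at 24 h. The other probe sets of the gene, with means of 6.18 and 4.71, gave differences of 0.80 and 0.84, of which the latter did not pass (limma adjusted p = 0.0139 and 0.0824). Abca1 was the only member picked out by the test of the difference, and the cause was not tested.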

How the results depend on the processing

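The median of the 17 sterol synthesis genes at 24 h stayed between 0.36 and 0.53 over all settings, with 17 of 17 positive, and the calls of Abca1 at 72 h and in the difference held in all of theirs. With the replicate number as a block, 0 fatty acid genes were lower at 24 h, 8 sterol genes were higher in DMSO cells over time, 1 fatty acid gene was higher in MEKi cells over time, and 2 sterol genes were called in the difference. The counts over time come from a block that tied arrays of different times. With all 12 arrays in 1 fit, 6 sterol genes were higher and 0 fatty acid genes lower at 24 h, 1 sterol gene was higher at 72 h, 7 were higher in DMSO cells over time and 4 lower in MEKi cells over time. With brighter probe sets, 1 fatty acid gene was higher at 24 h, 5 were lower in MEKi cells over time, and 3 sterol genes were lower in the difference. With centred arrays, 2 sterol and 2 fatty acid genes were higher in DMSO cells over time, and 1 fatty acid gene was higher and 5 lower in MEKi cells over time. Quantile normalization again gave 7 higher sterol genes in DMSO cells over time. The trended and robust prior gave 1 higher fatty acid gene at 24 h, 1 higher sterol gene at 72 h, 7 higher sterol genes in DMSO cells over time, 4 higher and 5 lower fatty acid genes in MEKi cells over time, and 3 lower sterol genes in the difference. Array weights gave 1 higher sterol gene at 72 h, 9 in DMSO cells over time, and 8 lower sterol and 1 lower fatty acid gene in the difference. The mean over probe sets gave 3 lower sterol genes in the difference, and turned Sc5d in MEKi cells over time to -0.47 (limma adjusted p = 0.000741), against 0.04 for its brightest probe set.

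Leaving out each array in turn gave 1 to 13 higher sterol genes and 0 to 1 lower fatty acid genes at 24 h. At 72 h it gave 0 to 1 higher and 0 to 1 lower sterol genes and 0 to 1 lower fatty acid genes. In DMSO cells over time it gave 2 to 10 higher and 0 to 1 lower sterol genes and 2 to 4 higher fatty acid genes, in MEKi cells over time 0 to 2 higher fatty acid genes, and in the difference 0 to 11 lower sterol and 0 to 1 lower fatty acid genes. A single gene stayed on its side of the threshold in 2359 values over all settings, 93 of which changed sign without a call, and gained a call in 135, lost one in 125 and changed sign with a call in 1. The cause of these changes was not tested, beyond fewer arrays where one was left out. In the simulated data for 24 h, 28 of 50 changes of 1.5-fold were recovered, and smaller ones were not simulated. The spread and the share of changed probe sets in the simulation were not those of the real 24 h arrays.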
